A study of Mus musculus with 2 samples.

Results

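The clustered core histone genes are the genes whose symbols begin with Hist1, Hist2, Hist3 or Hist4, without the linker histone genes that begin with Hist1h1. They were taken by symbol from the protein-coding genes of GENCODE release M21 on GRCm38, which gave 61 of 21951 genes. Of these, 18 encode H2A, 18 encode H2B, 12 encode H3 and 13 encode H4. The large Hist1 cluster on chromosome 13 holds 48 of them, Hist2 on chromosome 3 holds 10, Hist3 on chromosome 11 holds 2 and Hist4 on chromosome 6 holds 1. The binding of their RNA to Prrc2a was read from RNA immunoprecipitation and sequencing (RIP-seq), in which RNA that comes down with an antibody against a protein is sequenced. The series holds a single group of 2 samples, replicates 1 and 2, both made from whole brain of wild type C57BL/6J male mice at an age of 4 weeks, without a treatment and without a group lacking Prrc2a. The study calls them biological replicates. The protocol describes 3 brains and does not say how they were divided between the replicates. For each replicate the deposited list gives the position of every peak and its fold enrichment, a ratio of immunoprecipitate over a control library that the sources do not name. A peak was called shared when a peak of replicate 1 overlapped a peak of replicate 2 by at least 1 bp, and a gene was counted when such a peak overlapped its exons by at least 1 bp.

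Core histones form the octamer around which DNA is wrapped, with a tetramer of H3 and H4 at its centre and a dimer of H2A and H2B on either side. Most mRNAs of the clustered genes are made while DNA is being replicated. They lack introns, and they end in a conserved stem-loop instead of a poly(A) tail, to which the stem-loop binding protein Slbp binds for processing, export, translation and decay. Replacement variants such as H3.3 and H2A.Z are encoded by separate genes with polyadenylated mRNAs and are supplied throughout the life of a cell. Prrc2a is an RNA-binding protein known as a reader of m6A, the methylated adenosine found mostly in GGAC-like sequences.

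The stem-loop and the start of the coding sequence (CDS) show what these mRNAs share and where they differ. A stem-loop was defined as 16 bases that begin with GG, with a perfect stem of 6 bases around a loop of 4 bases that begins with TT. It was searched on the gene's strand within 200 bases past the last annotated stop codon of the gene. It was found in 54 of the 61 genes and in 75 of 21938 protein-coding genes searched (0.342%). Hist1h2bp, Hist1h2bq and Hist1h2br, where none was found, have a CDS annotated over 1546, 2069 and 2069 bp. A stem-loop past an earlier stop codon of these genes could have been missed. Its first base lay 22 to 59 bases past the stop codon, with a median of 32. The examples below give the DNA of the gene's strand in GRCm38 with 5 bases on either side, and capitals mark the paired bases of the stem. They were chosen to show the forms of the 4 families, with and without a shared peak.
Hist1h4b (chr13:23757361-23757386, plus strand): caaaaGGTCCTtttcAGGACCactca
Hist1h4c (chr13:23698084-23698109, minus strand): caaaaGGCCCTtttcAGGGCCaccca
Hist2h4 (chr3:96262934-96262959, minus strand): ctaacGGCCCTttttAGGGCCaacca
Hist1h3f (chr13:23544927-23544952, plus strand): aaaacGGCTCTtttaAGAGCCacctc
Hist1h2bg (chr13:23571838-23571863, plus strand): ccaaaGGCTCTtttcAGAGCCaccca
Hist1h2ak (chr13:21753377-21753402, minus strand): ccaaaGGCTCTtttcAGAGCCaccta
Hist1h2ap (chr13:21833024-21833049, minus strand): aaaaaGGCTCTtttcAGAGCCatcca
Hist2h2ab (chr3:96220328-96220353, plus strand): aaaaaGGCTCTtttaAGAGCCaccaa
The H4 genes had their own stem. In 8 of the 12 H4 genes with a stem-loop it read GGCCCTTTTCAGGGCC, in 2 it read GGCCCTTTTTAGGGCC and in 2 it read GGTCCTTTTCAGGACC. The form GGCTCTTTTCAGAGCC was found in 15 of 17 H2A genes, 10 of 14 H2B genes and 8 of 11 H3 genes, so these families could not be told apart by it.

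Within a family, most coding sequences were close copies. All 13 H4 genes encoded the same protein of 103 residues, from 12 distinct coding sequences whose pairwise identity ran from 85.4% to 100%. The first 90 bases of 5 H4 genes are shown because, within the CDS, only such synonymous differences can separate reads of these genes. Capitals mark bases that differ from Hist1h4b.
Hist1h4b (chr13:23757021-23757110, plus strand): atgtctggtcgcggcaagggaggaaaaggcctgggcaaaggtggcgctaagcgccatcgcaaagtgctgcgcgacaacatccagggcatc
Hist1h4c (chr13:23698360-23698449, minus strand): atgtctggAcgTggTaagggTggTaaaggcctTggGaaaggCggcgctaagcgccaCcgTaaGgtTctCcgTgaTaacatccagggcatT
Hist1h4d (chr13:23581602-23581691, plus strand): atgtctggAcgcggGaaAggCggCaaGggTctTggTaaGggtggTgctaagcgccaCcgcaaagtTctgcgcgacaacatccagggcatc
Hist1h4n (chr13:21832069-21832158, minus strand): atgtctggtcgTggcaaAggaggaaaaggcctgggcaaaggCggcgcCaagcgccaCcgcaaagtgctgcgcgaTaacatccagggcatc
Hist2h4 (chr3:96263215-96263304, minus strand): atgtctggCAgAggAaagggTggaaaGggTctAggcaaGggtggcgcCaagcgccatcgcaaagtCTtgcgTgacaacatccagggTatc
Hist1h4c differed from Hist1h4b at 16 of these bases, Hist2h4 at 14, Hist1h4d at 13 and Hist1h4n at 6. The 12 H3 genes encoded 3 proteins. Among 11 of them the coding sequences were 93.6% to 99.8% identical, and Hist2h3c1, whose annotated CDS has another length (543 bp), was not compared. The 18 H2A genes encoded 9 proteins, and 9 genes shared the most frequent of these. The H2A starts below are from 3 genes without a peak, Hist1h2ap, Hist1h2ao and Hist1h2ah, and from Hist1h2ak, which had a shared peak. Capitals mark bases that differ from Hist1h2ap.
Hist1h2ap (chr13:21833386-21833475, minus strand): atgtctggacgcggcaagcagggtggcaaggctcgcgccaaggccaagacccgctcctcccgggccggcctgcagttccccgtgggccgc
Hist1h2ao (chr13:21810467-21810556, plus strand): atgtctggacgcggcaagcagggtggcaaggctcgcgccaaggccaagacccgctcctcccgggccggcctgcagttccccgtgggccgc
Hist1h2ah (chr13:22035463-22035552, minus strand): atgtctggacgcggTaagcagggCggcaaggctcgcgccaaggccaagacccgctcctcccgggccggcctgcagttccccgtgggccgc
Hist1h2ak (chr13:21753738-21753827, minus strand): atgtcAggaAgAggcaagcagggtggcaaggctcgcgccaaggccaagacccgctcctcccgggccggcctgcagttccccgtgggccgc
Hist1h2ao was identical to Hist1h2ap over the whole coding sequence, and Hist1h2ak was 97.2% identical to it.

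Peaks were frequent over these genes and differed in number between the families. A shared peak lay over 31 of the 61 genes (50.8%), a peak of replicate 2 only over 10, a peak of replicate 1 only over 1, and no peak over 19. The background was 11.98% of all protein-coding genes with a shared peak, 16.5% with a peak of replicate 1 and 21.04% with a peak of replicate 2. Among genes of at most 1000 exonic bp, where most of the members belong, it was 2.00%, which is 39 of 1946 genes, and 25 of those 39 were clustered core histone genes. In the same short genes a peak of replicate 1 lay over 2.52% and a peak of replicate 2 over 2.72%. These peaks were used to choose the histone genes for description, so no test was made and nothing is read from the contrast with the background. The other 14 short genes included 2 linker histone genes, Hist1h1a and Hist1h1b, and their names were read after their values were seen.

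A shared peak lay over 11 of 13 H4 genes (84.6%), 7 of 12 H3 genes (58.3%), 8 of 18 H2B genes (44.4%) and 5 of 18 H2A genes (27.8%). Both remaining H4 genes had a peak in replicate 2, so every H4 gene had a peak in at least 1 library. Of the H3 genes only Hist1h3b had none. The genes without any peak were otherwise 8 H2B and 10 H2A genes. With 1 condition and 2 libraries, the order of the families was not tested.

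**Figure D1:**
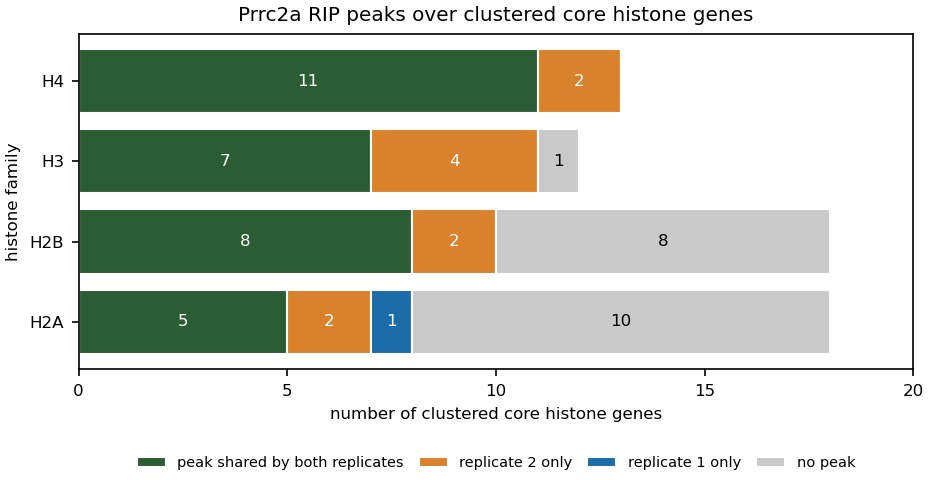
Number of clustered core histone genes (x axis) in each histone family (y axis) with a peak shared by both replicates, in 1 replicate only, or without a peak. The bar of H4 holds no gene without a peak, and the bar of H2A holds 10.

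Fold enrichment over the histone genes ranged widely. The 29 shared peaks of replicate 1 over these genes had a median fold enrichment of 10.2, from 2.28 to 20.0, beside a median of 2.27 for all 7317 shared peaks over protein-coding exons. In replicate 2 the 30 shared peaks had a median of 7.05, from 1.96 to 20.8, beside 2.78 for all 7792. The 95th percentile of all shared peaks was passed by 25 of 29 peaks in replicate 1 and by 22 of 30 in replicate 2. Among the 50 largest shared peaks over protein-coding exons, 16 in replicate 1 and 8 in replicate 2 lay over a core histone gene. The number of reads behind a peak is not in the files, so the depth is unknown. Whether immunoprecipitate and control had the same RNA selection is not stated. For mRNAs without a poly(A) tail, its part in these ratios was not tested, which limits the comparison with other genes. A value held by at least 10 peaks of its list was found for 4 of the 29 and 2 of the 30 peaks. All of these shared peaks lay over H2B genes. They were Hist1h2bm, Hist1h2bn, Hist1h2bj and Hist1h2bf in replicate 1, and Hist1h2bn and Hist1h2bj in replicate 2. Among the peaks of replicate 2 only, the values of the H3 genes Hist1h3g and Hist2h3c2 were held by 44 and 10 peaks.

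H4, which pairs with H3 in the tetramer, had the largest mean value of a family member. Hist1h4b reached 16.01 in replicate 1 and 20.8 in replicate 2 (mean 18.4 ± 3.40, SD, n = 2). At Hist1h4c it was 15.5 and 19.6. Both genes were high in both libraries, and no other H4 gene had a value above 15 in each. Hist1h4j reached 9.79 in replicate 1 and 18.1 in replicate 2 (mean 13.9 ± 5.87). Hist1h4f went the other way, with 18.9 and 8.21 (mean 13.6 ± 7.57). The means of Hist1h4b, Hist1h4j and Hist1h4f therefore differed by less than the spread between replicates of the last of these. The lowest mean of an H4 shared peak was that of Hist1h4i, at 2.28 and 3.66, and the lowest single value in replicate 2 was the 2.68 of Hist2h4. Hist1h4m, with a peak in replicate 2 only, had 15.0 there. Its coding sequence is identical to that of Hist1h4n, which had a shared peak at 9.01 and 7.02.

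The Hist1h4b peaks lay at chr13:23756968-23757414 in replicate 1 and chr13:23757003-23757361 in replicate 2 and covered its whole coding sequence, a single exon on the plus strand. Its first 300 coding bases are shown as the highest mean of all members, with the only GGAC among them in capitals.
Hist1h4b (chr13:23757021-23757320, plus strand): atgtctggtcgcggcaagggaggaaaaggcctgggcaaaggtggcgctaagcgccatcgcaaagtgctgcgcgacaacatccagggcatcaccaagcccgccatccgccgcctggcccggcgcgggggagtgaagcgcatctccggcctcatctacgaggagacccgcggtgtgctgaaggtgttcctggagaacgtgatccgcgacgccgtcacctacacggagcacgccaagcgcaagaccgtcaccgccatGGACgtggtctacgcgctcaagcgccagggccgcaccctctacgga
The list holds no strand, and this stretch also lies over an antisense gene, 4930558J22Rik, from which reads could not be told apart. In all, 7 of 29 shared peaks in replicate 1 and 8 of 30 in replicate 2 also touched an exon of a gene outside the family.

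H3 carries the tail positions best known for histone methylation and acetylation. Hist2h3b was enriched 20.0 fold in replicate 1 and 9.05 fold in replicate 2 (mean 14.5 ± 7.77, SD, n = 2). Its replicate 1 peak was the widest over any member, 1573 bp, and was the same peak that covered the neighbouring Hist2h2bb. Hist1h3f had 14.1 and 12.0 (mean 13.1 ± 1.44), the closest replicates among the 4 leading H3 genes. Hist1h3e had 18.7 and 7.08. Hist1h3a had 8.24 and 15.9, so it was the higher in replicate 2 while Hist1h3e was the higher in replicate 1. A peak in replicate 2 only was found at Hist1h3h (12.2), Hist1h3c (8.53), Hist1h3g (5.93) and Hist2h3c2 (2.56). The Hist2h3c2 peak lay wholly past the CDS and the stem-loop of that gene.

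H2B is the partner of H2A in the outer dimers. Hist2h2bb had 20.0 in replicate 1, in the peak it shares with Hist2h3b, and 7.03 in replicate 2 (mean 13.5 ± 9.21, SD, n = 2). Hist1h2bg had 14.5 and 5.38, and Hist1h2be had 14.5 and 4.88. These 3 genes were higher in replicate 1 by more than 2 fold. Hist1h2bm had 7.65 and 8.74 (mean 8.20 ± 0.766), so its replicates lay close together. Its value in replicate 1 was held by 15 peaks of that list. Hist1h2bk and Hist1h2bl had a peak in replicate 2 only, at 9.05 and 8.11. No peak was found over Hist1h2bp, Hist1h2bq, Hist1h2br, Hist1h2bh, Hist1h2bc, Hist1h2ba, Hist2h2be and Hist3h2ba. Hist1h2ba encodes the testis form of H2B, and Hist2h2be is known for expression in sensory neurons of the nose.

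H2A had the fewest shared peaks. Their median fold enrichment was the lowest of the families in replicate 1, at 5.74, but in replicate 2 it was 8.03, above the 6.69 of H4 and the 6.41 of H2B. Hist1h2ab had 11.0 in replicate 1 and 8.78 in replicate 2 (mean 9.87 ± 1.54, SD, n = 2). Hist1h2ak had 11.2 and 8.03 (mean 9.59 ± 2.21), which cannot be separated from Hist1h2ab by these replicates. Both are Hist1 genes, and they were the only H2A genes of that cluster with a shared peak. In Hist2, Hist2h2ac had 5.74 and 11.7, and Hist2h2ab had 3.48 and 7.19, both higher in replicate 2. Hist1h2ai (9.36) and Hist1h2ae (4.77) had a peak in replicate 2 only, and Hist2h2aa2 (6.77) had one in replicate 1 only. The Hist2h2aa2 peak touched only 29 exonic bases of that gene and none of its CDS. It also lay over an antisense gene, Gm20632. No peak was found over Hist1h2an, Hist1h2ao, Hist1h2ap, Hist1h2ah, Hist1h2ag, Hist1h2af, Hist1h2ad, Hist1h2ac, Hist1h2aa and Hist3h2a. Hist1h2aa encodes the testis form of H2A.

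**Figure D2:**
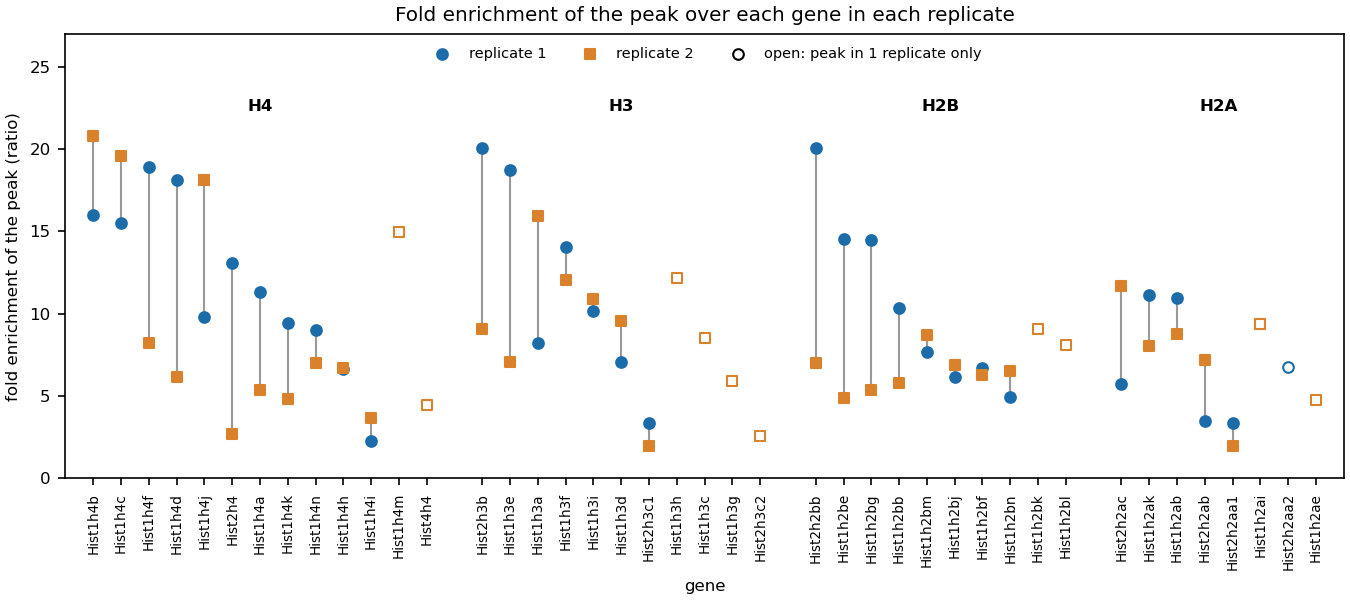
Fold enrichment (y axis, ratio) of the peak over each of the 42 genes with a peak (x axis), grouped by family, with circles for replicate 1, squares for replicate 2 and a line joining the values of a shared peak. Open symbols are peaks of 1 replicate only. Hist1h4b and Hist1h4c stand above 15 in both replicates, while Hist2h2bb and Hist2h4 lie far apart between them.

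The replicates ranked the genes differently. Of the 31 genes with a shared peak, 18 had the higher fold enrichment in replicate 1 and 13 in replicate 2. Over these genes the log2 ratio of replicate 2 to replicate 1 was -0.32 in the median with an SD of 0.90, beside a median of 0.26 with an SD of 0.54 over the 2598 other protein-coding genes with a shared peak. Across the 31 genes, Spearman's rho between replicates was 0.273 and Pearson's r of the log2 values was 0.415. These are descriptions across genes that share libraries and near-identical sequence, and genes are not replicates. Some peaks also enter more than once. Hist2h2aa1 and Hist2h3c1 have the same pair of peaks, and Hist2h3b and Hist2h2bb have the same peak in replicate 1. Hist2h4 differed most, with 13.1 in replicate 1 and 2.68 in replicate 2.

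The clusters were compared next. In Hist1, 24 of 48 genes had a shared peak (50.0%), 8 had a peak in replicate 2 only and 16 had none. Within it the families again differed, with 10 of 11 H4 genes, 5 of 9 H3 genes, 7 of 15 H2B genes and 2 of 13 H2A genes. The Hist1 genes lie in 2 blocks, of 22 genes at chr13:21715763-22043676 and of 26 genes at chr13:23531050-23934851. A shared peak lay over 9 genes of the first block and 15 of the second. In replicate 1 the median of these was 9.01 in the first block and 14.1 in the second, whereas in replicate 2 the medians were 7.02 and 7.08. The difference in median fold enrichment between the blocks was thus seen in replicate 1 alone. The blocks also differed in sequence. The median percent of 100-base words of the CDS found once in the genome was 13.4 in the first and 42.8 in the second. Its part in the peaks of the blocks was not tested.

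In Hist2, 7 of 10 genes had a shared peak (70.0%), namely Hist2h2ab, Hist2h2ac, Hist2h2aa1, Hist2h3c1, Hist2h4, Hist2h3b and Hist2h2bb. These include 3 of 4 H2A genes, against 2 of 13 in Hist1. With 10 genes, several of which share a peak, this contrast was not tested. A single pair of peaks served Hist2h2aa1 and Hist2h3c1, at 3.34 in replicate 1 and 1.96 in replicate 2, and it touched only 7 exonic bases of Hist2h2aa1 and 49 of Hist2h3c1 in replicate 1. The replicate 2 peak stopped 362 bases from Hist2h2aa1. These were the members with a shared peak just inside the 1 bp limit. Among genes without any peak, Hist1h2ad lay just outside it, 203 bases from the nearest peak of replicate 1 and 315 from that of replicate 2. So did Hist2h2be, 267 and 270 bases away, and Hist1h2ag, 276 and 321 bases away. Hist1h2ae, with a peak in replicate 2 only, lay 112 bases from the nearest peak of replicate 1. Neither Hist3 gene, Hist3h2a or Hist3h2ba, had a peak, and the nearest peak of either list was 14366 bases away. Hist4h4, the only Hist4 gene, had a peak of 4.46 in replicate 2 only.

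H2A and H2B genes often stand back to back, with a short start region between them. There were 12 such pairs, 175 to 305 bp apart. Both partners had a shared peak only in the pair of Hist1h2ak and Hist1h2bn. In 3 pairs only H2B had one, at Hist1h2bj, Hist1h2bg and Hist1h2bf, beside Hist1h2ag, Hist1h2ae and Hist1h2ad. In 1 pair only H2A had one, Hist2h2ac beside Hist2h2be. The remaining 7 pairs had no shared peak on either side. In 5 of the 12 pairs the H2A gene was the less unique in sequence.

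The peaks lay over the coding sequence. The midpoint was in the CDS for 27 of 29 shared peaks in replicate 1 (93.1%), beside 50.9% of all shared peaks over protein-coding exons, and for 29 of 30 in replicate 2. Most members have a single exon (56 of 61) and a median of 528 exonic bp, and the shared peaks had median widths of 396 and 386 bp, so a peak spanned most of a gene. Counting the A of the start codon as base 1, the shared peak ran in the median from base -17 to base 384 in replicate 1 and from base -13 to base 377 in replicate 2. At least 50% of the CDS lay under the shared peak in 29 of the 31 genes in each replicate. The start codon was covered by 23 of 29 peaks in replicate 1 and 22 of 30 in replicate 2, and the stop codon by 17 and 21.

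The peaks usually ended short of the stem-loop. Of the 30 genes with both a stem-loop and a shared peak, the peak stopped before the first base of the stem-loop in 19 in replicate 1 and in 21 in replicate 2. These peaks stopped 3 to 593 bases short of it in replicate 1, with a median of 57, and 0 to 561 bases short in replicate 2, with a median of 17. The largest distance in each replicate was that of Hist2h3c1, whose peaks lay almost wholly before its CDS. Counting every peak, the whole stem-loop lay inside a peak in 8 of 31 genes in replicate 1 and in 6 of 38 in replicate 2. Hist1h4h is an example with its stem-loop covered in both replicates. The mature mRNA ends a few bases after the stem-loop, and the part of this in where peaks end was not tested.

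**Figure D3:**
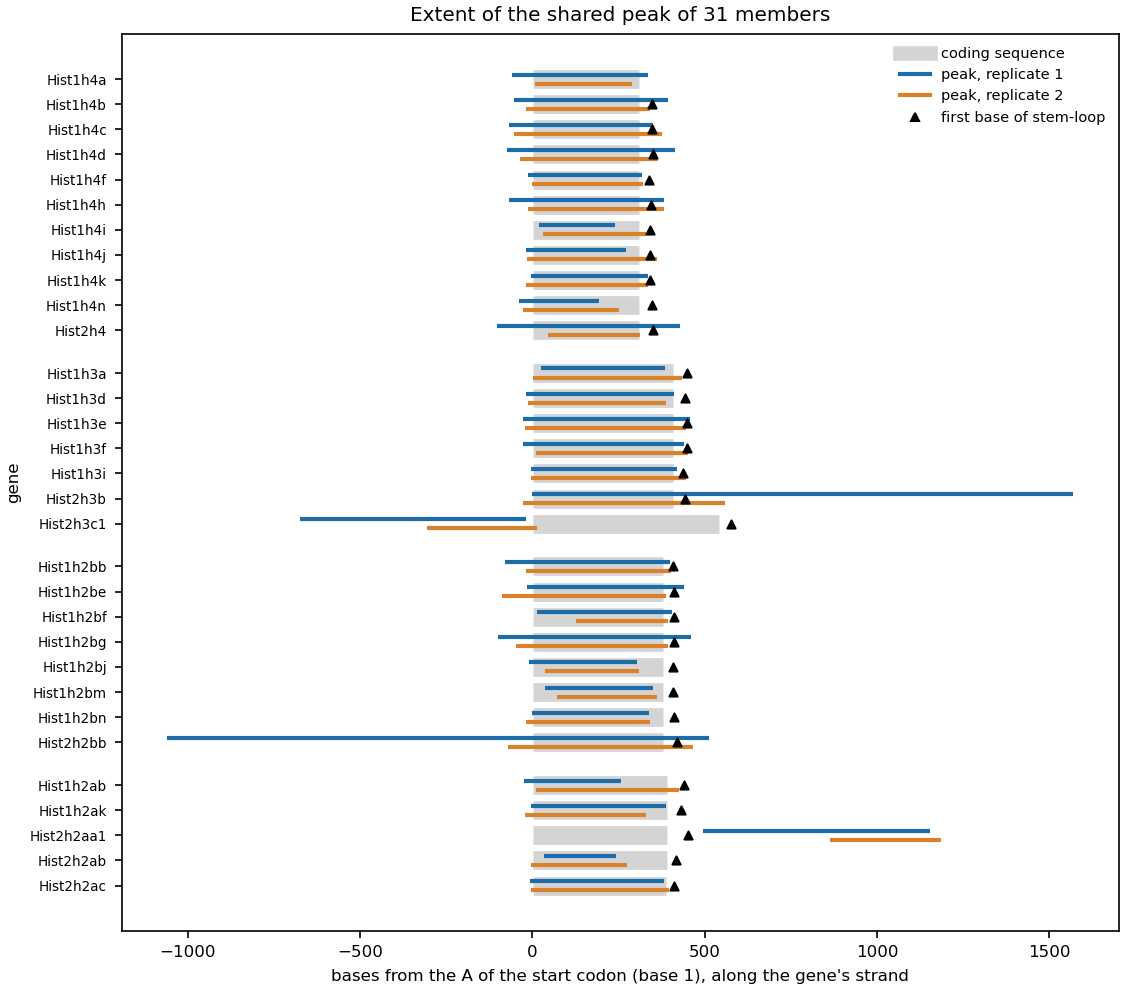
Extent of the shared peak of each of the 31 genes in replicate 1 and replicate 2 (coloured lines), in bases from the A of the start codon along the gene's strand (x axis), over the coding sequence (grey bar), with a triangle at the first base of the stem-loop. Most peaks span the grey bar, and those of Hist2h2aa1 and Hist2h3c1 lie almost wholly beside it.

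GGAC, searched on the gene's strand within the exonic bases of a peak, was present in 21 of 29 shared peaks of replicate 1 (72.4%) and 19 of 30 of replicate 2 (63.3%). Among all shared peaks over protein-coding exons it was present in 77.9%. This background is a single value and was not given for each replicate. The shares over histone genes lay below it, without a test. Peaks of other genes differ in length and base composition, and a match says only that these letters are in the window.

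The authors kept only uniquely mapped reads, so a gene without unique sequence can show few reads. For each gene, the percent of 100-base words of its CDS that occur once in the genome, on either strand, was counted. The median over all 61 genes was 37.6%, and it was 39.0% in H4, 27.7% in H3, 48.6% in H2B and 24.4% in H2A. The genes with a shared peak had a median of 48.4% and those without a peak 15.8%, and both groups ran from 0 to 100%. Of 21 genes below 20% unique, 5 had a shared peak and 10 had none. Of 40 genes at 20% or more, 26 had a shared peak and 9 had none. Fewer shared peaks and less unique sequence thus went together, and the part of mappability in the result was not tested.

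Within the families this held unevenly. Among H2A genes at 20% or more, 4 of 9 had a shared peak, and below that 1 of 9. That gene below 20% was Hist2h2aa1, and its shared peak covered 0% of its CDS in both replicates. Among H2B genes the counts were 7 of 13 and 1 of 5, among H3 genes 5 of 7 and 2 of 5, and among H4 genes 10 of 11 and 1 of 2. The H3 genes below 20% include Hist2h3c1, whose shared peak covered 0% of its CDS in replicate 1 and 2.76% in replicate 2. The peaks of Hist2h2aa1 and Hist2h3c1 thus say little about how reads mapped to their coding sequence. At 20% or more the shares also ran in the order H4, H3, H2B and H2A. The median percent unique of these genes was 51.9 in H4, 48.2 in H3, 52.7 in H2B and 89.3 in H2A. The part of mappability in the order of the families was not tested. The 9 genes at 20% or more without a peak were all H2A or H2B genes, namely Hist1h2aa, Hist3h2a, Hist1h2ac, Hist1h2af, Hist2h2be, Hist3h2ba, Hist1h2ba, Hist1h2bh and Hist1h2bp. Conversely, Hist1h4m and Hist1h4n had peaks although none of their 100-base words was unique. Paired reads can reach into flanking sequence, which these words of the CDS leave out. The peaks of such genes are uncertain as to which copy they belong to.

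**Figure D4:**
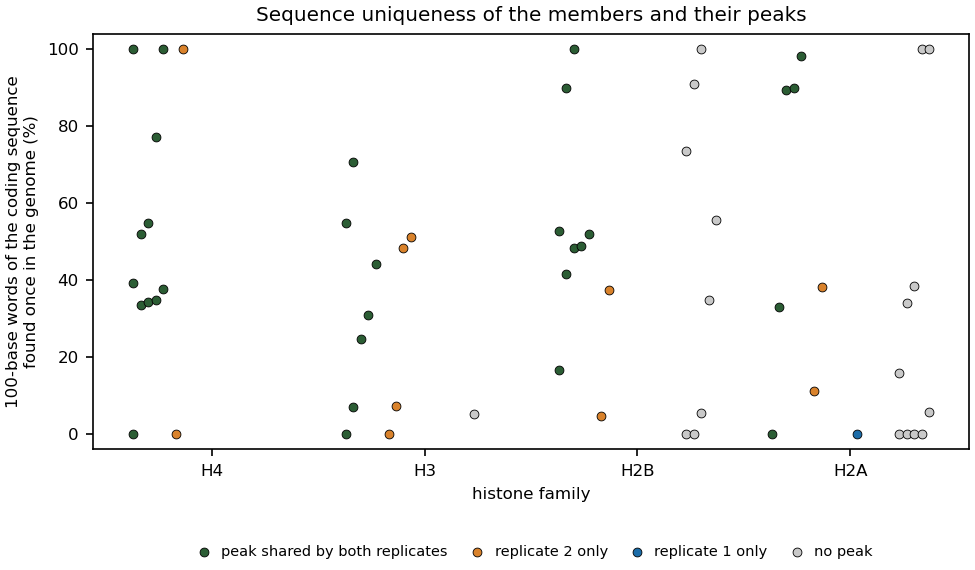
Percent of 100-base words of the coding sequence found once in the genome (y axis) for each of the 61 genes, by family (x axis) and by colour for a peak shared by both replicates, a peak in 1 replicate only or no peak. Points are spread sideways for legibility. Genes with a shared peak and genes without a peak both reach 0 and 100%.

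Other histone genes and genes that act on histones or their mRNAs were counted in the same way, to be read beside the 11.98% of all protein-coding genes with a shared peak. Of 6 linker histone H1 genes, which bind the DNA between nucleosomes and lie in the Hist1 cluster, 4 had a shared peak. Hist1h1d had 19.9 in replicate 1 and 31.5 in replicate 2, above every core histone value in replicate 2. Hist1h1a had 9.99 and 19.04, Hist1h1e had 16.9 and 7.23, and Hist1h1b had 8.82 and 10.3. None of 9 genes for replacement variants had a peak in either replicate. Of 17 genes for histone mRNA processing and decay, 3 had a shared peak. These were Casp8ap2, a factor of histone gene transcription and processing (3.14 and 3.52), and the uridylating enzymes Tut4 (1.60 and 2.83) and Tut7 (2.16 and 5.45). Of 19 histone chaperone genes 4 had one, namely Chaf1a (4.42 and 2.92), Ubn1 (2.01 and 4.78), Hira (1.74 and 3.16) and Cabin1 (2.49 and 2.32).

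Since clustered histone mRNAs belong to S phase, the peaks over 21 genes of cycling cells were counted beside them. None had a shared peak, and Mcm6 and E2f1 had a peak in replicate 2 only. At 11.98% over all protein-coding genes, few hits are to be expected in this list and in the shorter ones that follow, so nothing is read from their counts. Of the markers of brain cell types, a shared peak lay over 0 of 6 for neurons, 1 of 5 for astrocytes (Slc1a2), 1 of 10 for oligodendroglia (Olig2), 2 of 5 for microglia (Csf1r and Tmem119) and 0 of 4 for endothelium. Of 5 markers of pituitary and blood, Gh and Prl had a peak in replicate 1 only. A peak list gives no RNA level, so neither the amount of histone mRNA in these brains nor the cells it came from is known, and fewer cells of a type and less RNA per cell cannot be told apart.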

How the data were processed

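Prrc2a RIP-seq was performed in 2 samples of 1 group. The authors trimmed reads with Cutadapt and Trimmomatic, used TopHat for alignment against mm10, discarded reads that did not map uniquely or had a mapping quality under 20, and ran MACS2 on each replicate alone with an FDR limit of 0.05. The submitters' processing notes name TopHat2 2.0.9 and MACS2 2.0.10, and the methods name other versions. The deposited values are peak positions and a fold enrichment, a linear ratio over a control not given in the sources used here. They come without strand, FDR or read number, so depth and precision are unknown. For the immunoprecipitated RNA the methods give rRNA removal and then a TruSeq stranded mRNA kit. How the RNA of the control was selected is not stated. The lists held 18129 and 18671 peaks, of which 8372 and 8930 were shared.

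Peaks were joined to all exons of GENCODE M21 on GRCm38 by an overlap of at least 1 bp, with both ends counted from 1. A gene with several shared pairs is given by the pair with the largest mean. Words of 50 and 100 bases of each coding sequence were searched on both strands of the chromosomes. Python 3.11.15 with numpy 2.4.6 was used, with matplotlib 3.10.9 for figures. The functions were tested on simulated data. The 4 genes of each family with the largest mean were named with full values, as was every gene of Hist2, Hist3 and Hist4 and every gene with a peak in 1 replicate or none. The genes and lists were chosen with earlier results of these data known, so no test was made. Alternatives changed 1 choice at a time: the overlap, the fold enrichment, the exonic bases, 1 gene per peak, replicate 2 peaks counted, basic transcripts, CDS bases and each replicate alone.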

Additional observations from a re-analysis of the deposited data

How the results depend on the processing

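The number of core histone genes with a shared peak was 31, and it lay between 26 and 31 under the alternatives that kept both replicates. With an overlap of at least 50% of both peaks it was 27, and with 1 gene per peak it was also 27. Both removed Hist2h2aa1, Hist2h2bb, Hist2h3b and Hist2h3c1 and left 3 Hist2 genes. When both peaks had to reach 4 fold it was 26, with 3 Hist2 and 3 H2A genes left and 1.59% of all protein-coding genes. With CDS bases only it was 29. Leaving out 1 replicate, which counts every peak of the other, gave 32 to 40 genes, with 7 to 11 H3 genes, 0 to 1 Hist4 genes and 16.5% to 21.04% of all protein-coding genes. Without replicate 1, Hist4h4 was counted. H4 kept the largest share and H2A the smallest in each of these alternatives. The cause of these changes was not tested. No paired analysis was possible because the series holds a single group. The unknown depth means that a gene without a peak was not detectable in the list, not that it was unbound.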
